A study of Mus musculus with 8 samples.

Results

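The 10 genes described here, Fos, Fosb, Jun, Junb, Egr1, Ier2, Atf3, Btg2, Dusp1 and Myc, are immediate early genes, which cells transcribe within minutes of a stimulus without first making new protein. They were taken as the non-control probes of the array whose deposited gene name was one of these 10. All 10 were on the array, among 27398 gene names, with 16 probes and 43 spots. Total RNA of the tibialis anterior, the fast-twitch muscle along the shin, was measured in 8 male mice on the C57BL/6 background at 8 weeks of age. In 4 of them, labelled Prep1deltaSM, Prep1 was ablated in skeletal muscle. The other 4, labelled Prep1f/+ and called Prep1 flox in the design text, were the controls. The Cre line behind the deletion is not given in the sources used here. Every mouse gave 1 single-colour array, and the 4 slides each paired a Prep1deltaSM with a Prep1f/+ array.

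Immediate early genes are kept silent but poised, and kinases such as ERK, p38 and RSK switch them on by phosphorylating factors already bound at their promoters, among them SRF with its Elk partners, and CREB. Fos and Jun proteins pair into the dimeric factor AP-1, and Egr1 binds GC-rich sites. Messages of the class are short-lived, so their level at sampling follows recent events such as contraction, stretch, injury or handling of the muscle. Prep1, the protein of Pknox1, is a homeodomain factor that binds DNA together with Pbx proteins, and what its loss does to muscle transcripts is the question of the comparison.

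Promoter sequence is where such signals arrive, and is printed for the 4 members that stand for the patterns described below: Fos and Atf3, whose levels ran together between muscles, Junb, whose values separated the groups, and Dusp1, which carries a whole cyclic AMP response element (CRE). Each line gives the 150 bases before the transcription start in RefSeq (GRCm38.p6), 5′ to 3′ on the gene's own strand. Capitals mark the CRE TGACGTCA, its shorter form TGACG on either strand and the TATA box TATAAA.
Fos, chr12:85473740-85473889, plus strand: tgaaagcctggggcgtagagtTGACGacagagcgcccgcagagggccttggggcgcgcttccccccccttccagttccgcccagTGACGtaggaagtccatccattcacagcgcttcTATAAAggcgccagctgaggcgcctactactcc
Atf3, chr1:191183334-191183483, minus strand: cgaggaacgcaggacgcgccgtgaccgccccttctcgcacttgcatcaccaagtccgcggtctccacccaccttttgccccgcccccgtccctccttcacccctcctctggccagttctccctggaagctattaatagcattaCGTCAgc
Junb, chr8:84978749-84978898, minus strand: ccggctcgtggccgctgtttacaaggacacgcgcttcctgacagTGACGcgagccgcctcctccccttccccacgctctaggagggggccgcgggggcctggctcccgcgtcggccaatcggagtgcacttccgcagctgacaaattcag
Dusp1, chr17:26508473-26508622, minus strand: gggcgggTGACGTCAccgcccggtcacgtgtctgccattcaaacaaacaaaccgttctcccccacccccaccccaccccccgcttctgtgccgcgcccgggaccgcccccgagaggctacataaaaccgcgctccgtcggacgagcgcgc

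Of the 10 members, 7 had an entry in the promoter table, which spans 250 bases before to 50 bases after each start. The short CRE sequence TGACG lay in 6 of these 7, Fos, Fosb, Junb, Atf3, Btg2 and Dusp1, and in 20.8% of all 32851 promoters of the same length, both strands read. The whole CRE TGACGTCA, which contains the short one on both strands, lay in Btg2 and Dusp1, against 1.79% of all promoters. The binding sequence of Egr factors, GCGNGGGCG, lay in Fosb and Btg2 (5.55% of all), and TATAAA in Fos and Junb (13.6%); that of Junb starts at base 1 after the start and so is outside the printed stretch. The AP-1 site TGANTCA (7.81% of all), the CArG box that SRF binds (1.63%), the full Pbx-Prep site (0.222%) and its core TGATNNAC (7.53%) were in 0 of the 7 windows. A match of letters is a description and not a bound site. Egr1, Ier2 and Myc had no entry and were not searched. Sequence outside the window was not searched either, so the counts do not cover sites there.

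Levels are log2 of the spot signal relative to the 75th percentile of the same array, so a value of 0 is the signal that 3 in 4 spots do not exceed. Of the 10 members, 9 were well above background on all 8 arrays and entered the test over 16016 genes. Fosb, whose protein pairs with Jun proteins in AP-1, was well above background on 2 of 8 arrays and was not tested. Its processed signal was 5.27, 2.92, 7.97 and 7.23 in the Prep1deltaSM muscles, against 6.67, 4.07, 5.26 and 20.7 in the Prep1f/+ muscles. The 2 arrays on which it was measured were Prep1deltaSM replicate 3 and Prep1f/+ replicate 4, 1 of each group.

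Pknox1, the targeted gene, had a log2 level of -1.84, -2.08, -2.28 and -1.96 in Prep1deltaSM muscles, against -0.09, -0.31, -0.21 and -0.51 in Prep1f/+ muscles. It was the 1 gene of 16016 past an adjusted p of 0.05 (limma adjusted p = 0.0072), so that 0.00624% of genes were called. The count was 0 without Prep1deltaSM replicate 2, Prep1f/+ replicate 2 or Prep1f/+ replicate 3 and with slide as a block, 5 without Prep1deltaSM replicate 4, and 26 after normexp background correction with quantile normalization. On the first principal component of all genes, which held 24.4% of the variance, Prep1f/+ replicates 4 (41.0) and 1 (23.6) stood apart from the other 6 muscles (-17.0 to 3.08). Between 23787 and 27123 spots of an array were well above background, fewest in Prep1f/+ replicate 4. All 8 myofibre markers examined were well above background on all 8 arrays. Whole muscle also holds other cells, and fewer cells of a type and less RNA per cell cannot be told apart here.

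Between Prep1deltaSM and Prep1f/+ muscle, 0 of the 9 tested members passed an adjusted p of 0.05 in limma, against 0.00624% of all genes. Junb, Ier2 and Egr1 had lower signal in Prep1deltaSM muscle at an unadjusted limma p under 0.05, and 0 members had higher signal at that level; of all genes, 10.4% were lower and 5.54% higher at it. The other 6 members lay within 0.43 of no difference on the log2 scale. Of the 9, 4 had higher and 5 lower means in Prep1deltaSM, with a median log2 difference of -0.02, against -0.07 for all genes. Of all 16016 genes, 5972 had higher and 10044 lower means.

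Junb encodes an AP-1 subunit that is known in mice to support the size of muscle fibres. Its level was 2.49, 2.33, 2.89 and 2.44 in Prep1deltaSM muscles, against 3.31, 3.24, 3.10 and 3.09 in Prep1f/+ muscles. The highest Prep1deltaSM muscle was below the lowest Prep1f/+ muscle. The log2 difference was -0.65 ± 0.13 (SE; 95% interval -0.95 to -0.35), a signal 1.57-fold lower, with an adjusted p of 0.132 by limma and rank 116 of 16016 by p. An exact two-sided permutation of the 70 assignments gave p = 0.0286, the smallest it can give. Non-overlapping groups with lower signal in Prep1deltaSM were found for 6.74% of all genes (and with higher signal for 3.72%), and among members for Junb and Ier2. The probe (A_51_P159201) lies at chr8:87500881-87500940 on the minus strand in mm9, the build of the files. A second Junb probe (A_51_P159194), which overlaps it by part of its length, read 2.16, 2.26, 2.57 and 2.33 in Prep1deltaSM, against 2.97, 2.70, 2.64 and 2.63 in Prep1f/+. Its groups did not overlap either, with a log2 difference of -0.41 ± 0.12 (SE). Within slides 1 to 4, the Junb difference of the brighter probe was -0.74, -0.77, -0.88 and -0.20, lower on each slide.

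Ier2 encodes a small nuclear protein induced by growth factors. Its level was 0.05, 0.00, 0.48 and 0.06 in Prep1deltaSM muscles, against 1.37, 0.76, 0.56 and 1.15 in Prep1f/+ muscles. The groups did not overlap, though Prep1deltaSM replicate 3 came within a short distance of the lowest Prep1f/+ muscle. The log2 difference was -0.81 ± 0.19 (SE; 95% interval -1.25 to -0.37), 1.75-fold lower, with an adjusted p of 0.158 by limma and an exact two-sided permutation p of 0.0286. Within slides 1 to 4 it was -0.70, -0.56, -1.31 and -0.67. With the pair of Prep1f/+ muscles that stand apart (replicates 1 and 4) dropped, a choice made after seeing the data, the difference was -0.51. A second, dim Ier2 probe (A_52_P554555) differed by -0.44 ± 0.28 (SE) with overlapping groups. The first probe (A_51_P481325) is given by the files at chr8:87185211-87185245 on the minus strand, mm9.

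Egr1, a zinc-finger factor induced by contraction, stretch and growth factors, had the largest difference of the 9. Its level was 0.11, -0.40, 1.97 and -0.23 in Prep1deltaSM muscles, against 3.15, 1.87, 1.26 and 1.36 in Prep1f/+ muscles. Of the Prep1deltaSM muscles, 3 lay below every Prep1f/+ muscle, and replicate 3 lay above 3 of the 4 Prep1f/+ muscles. The log2 difference was -1.55 ± 0.59 (SE; 95% interval -2.90 to -0.19), 2.92-fold lower in Prep1deltaSM, with an adjusted p of 0.266 by limma. The exact two-sided permutation p was 0.114. Slides 1 to 3 gave -1.76, -1.67 and -3.37, and slide 4, which held Prep1deltaSM replicate 3, gave 0.61. Without that muscle the difference was -2.08, and without Prep1f/+ replicate 1 it was -1.14. The 1 probe of Egr1 (A_51_P367866) was well above background on all 8 arrays.

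**Figure D1:**
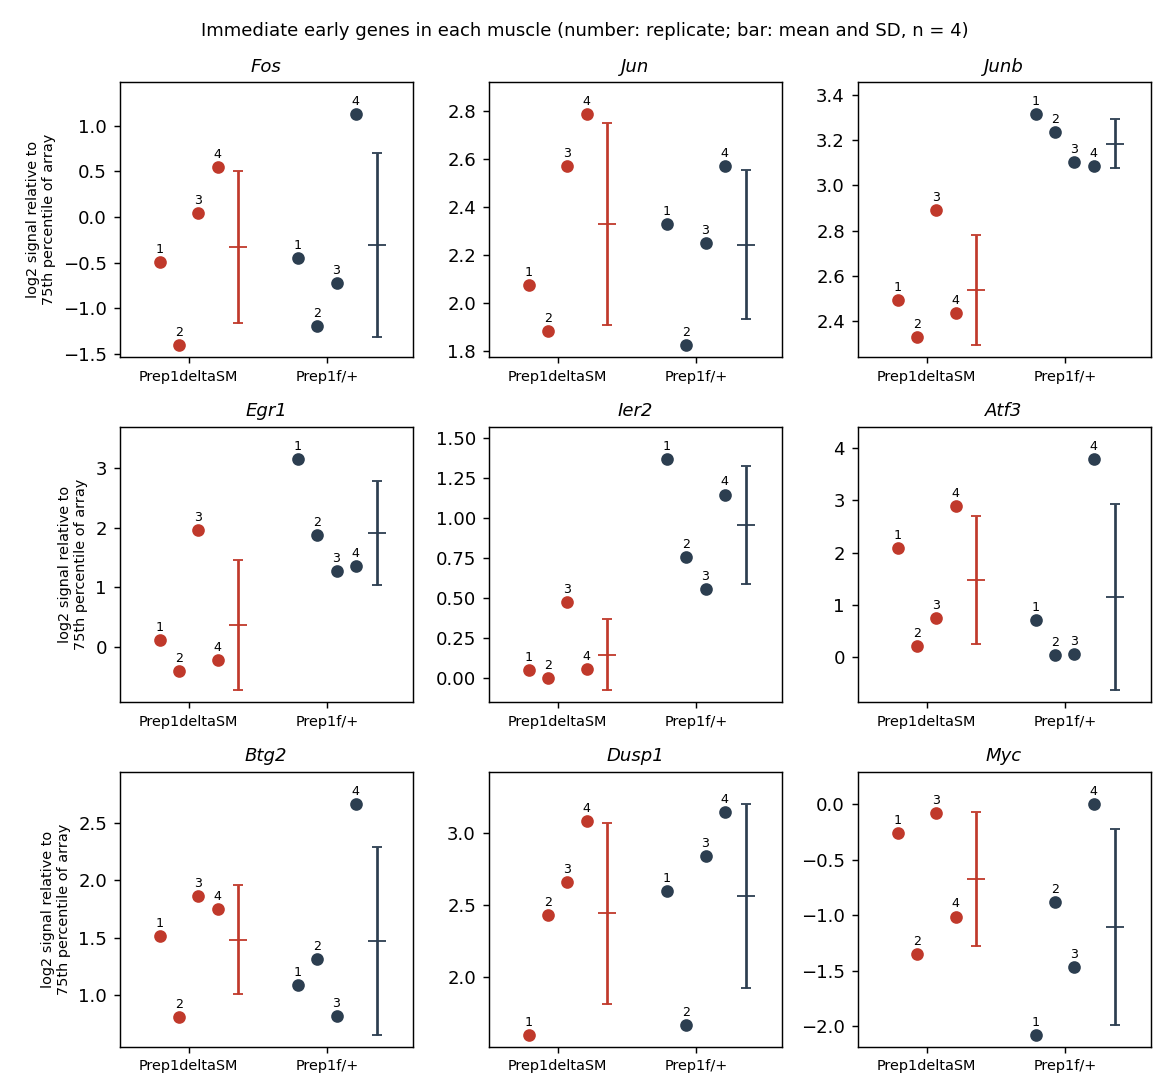
Level of each of the 9 tested members in each muscle, as log2 signal relative to the 75th percentile of the array, with the y axis scaled to each gene. Points are muscles numbered by replicate, and bars are the mean and SD of 4. The groups are apart for Junb and Ier2, apart but for Prep1deltaSM replicate 3 for Egr1, and intermingled for the other 6 genes.

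The AP-1 genes Fos and Jun did not separate the groups. Fos had a level of -0.49, -1.41, 0.04 and 0.54 in Prep1deltaSM muscles, against -0.45, -1.19, -0.72 and 1.12 in Prep1f/+ muscles. Both groups ran from below -1 to above 0.5, with the highest value in Prep1f/+ replicate 4 and the next in Prep1deltaSM replicate 4. The difference was -0.02 ± 0.56 (SE; 95% interval -1.29 to 1.25; limma adjusted p = 0.990), and it was 0.63 without Prep1f/+ replicates 1 and 4 and 0.46 without replicate 4 alone. Jun, the most common partner of Fos, read 2.07, 1.89, 2.57 and 2.78 in Prep1deltaSM, against 2.33, 1.82, 2.25 and 2.57 in Prep1f/+. Its groups overlapped over nearly their whole range, with a difference of 0.08 ± 0.23 (SE; 95% interval -0.44 to 0.61; limma adjusted p = 0.881).

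Atf3, a CREB-family repressor induced by stress, was the most variable member. Its level was 2.08, 0.22, 0.74 and 2.89 in Prep1deltaSM muscles, against 0.72, 0.05, 0.06 and 3.78 in Prep1f/+ muscles. Prep1f/+ replicate 4 held the highest value of all and its 3 group mates lay at 0.72 or less, so the mean difference of 0.33 ± 0.91 (SE; 95% interval -1.76 to 2.42; limma adjusted p = 0.883) rested on single muscles. It was -0.14 without Prep1deltaSM replicate 4 and 1.21 without Prep1f/+ replicate 4. Btg2, which slows proliferation and promotes the shortening of message tails, read 1.51, 0.81, 1.86 and 1.75 in Prep1deltaSM, against 1.08, 1.31, 0.82 and 2.66 in Prep1f/+. Again Prep1f/+ replicate 4 was highest, and the groups overlapped, with a difference of 0.01 ± 0.41 (SE). The other Btg2 probes differed by 0.20 and -0.04, so its sign depends on the probe.

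Dusp1, the phosphatase that switches off p38, JNK and ERK, read 1.60, 2.43, 2.66 and 3.08 in Prep1deltaSM muscles, against 2.60, 1.67, 2.84 and 3.15 in Prep1f/+ muscles. Each group had 1 low muscle and 3 higher ones, and the difference was -0.12 ± 0.38 (SE; 95% interval -0.998 to 0.76; limma adjusted p = 0.903). Without Prep1deltaSM replicate 1, its low muscle, the difference was 0.16. Myc, a growth-promoting factor of the helix-loop-helix class, read -0.26, -1.36, -0.08 and -1.01 in Prep1deltaSM, against -2.08, -0.88, -1.47 and 0.00 in Prep1f/+. Here Prep1f/+ held both the lowest and the highest muscle. The difference was 0.43 ± 0.46 (SE; 95% interval -0.62 to 1.48; limma adjusted p = 0.663), with 0.38 and 0.68 by the other Myc probes and 0.10 without Prep1f/+ replicate 1.

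**Figure D2:**
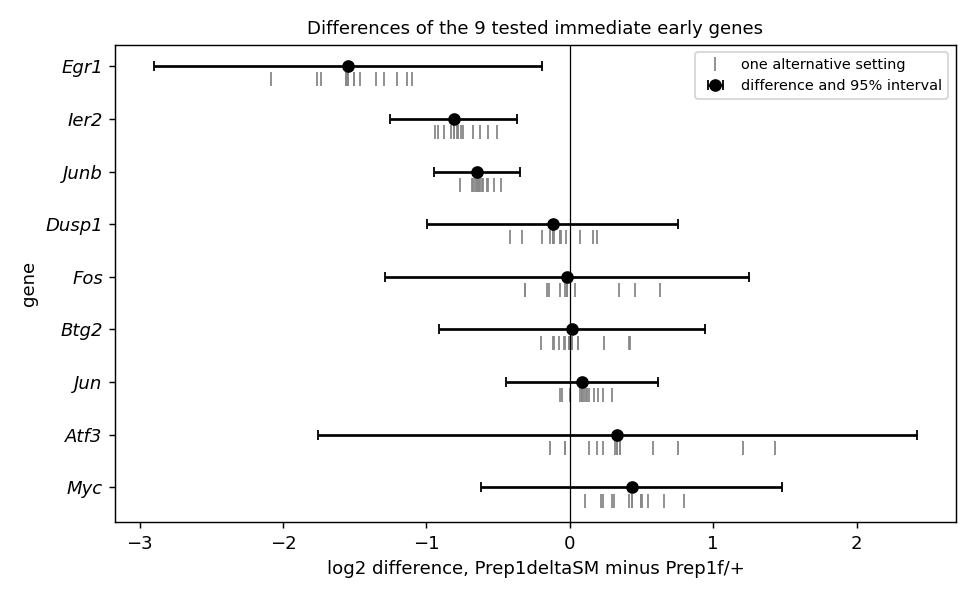
Log2 difference, Prep1deltaSM minus Prep1f/+, of the 9 tested members, with the 95% interval of the fit (black) and the value under each alternative setting (grey ticks). Junb, Ier2 and Egr1 stay below 0 under every setting shown, while the ticks of Dusp1, Fos, Btg2, Jun and Atf3 lie on both sides of 0; 0 of the 9 passed the adjusted threshold.

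Most members also spread widely between muscles of one group. The within-group SD was above the 90th percentile of all genes for 6 of the 9 tested members (66.7%), a line that 1602 of all 16016 genes exceed by construction. These were Atf3 (SD 1.53), Egr1 (0.98), Fos (0.92), Myc (0.76), Btg2 (0.67) and Dusp1 (0.63). Jun (0.37), Ier2 (0.30) and Junb (0.19) lay below it, and the median over the 9 was 0.67, against 0.19 over all genes. This comparison of SDs is a description with no test. Of the 31 tested genes in a list of other immediate early genes, 17 (54.8%) lay above the same percentile.

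For 3 members the array carries 10 spots of 1 probe, so the error of reading a spot can be set beside the spread between mice. The 10 Fos spots of an array varied with a median SD of 0.081 on the log2 scale, while the muscles of a group varied with an SD of 0.92, 11.4 times as much. The ratio was 5.90 for Jun (0.063 between spots and 0.37 between muscles) and 9.64 for Myc (0.079 and 0.76). The spots share 1 labelled RNA and 1 hybridisation, so this covers neither labelling nor RNA preparation.

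**Figure D3:**
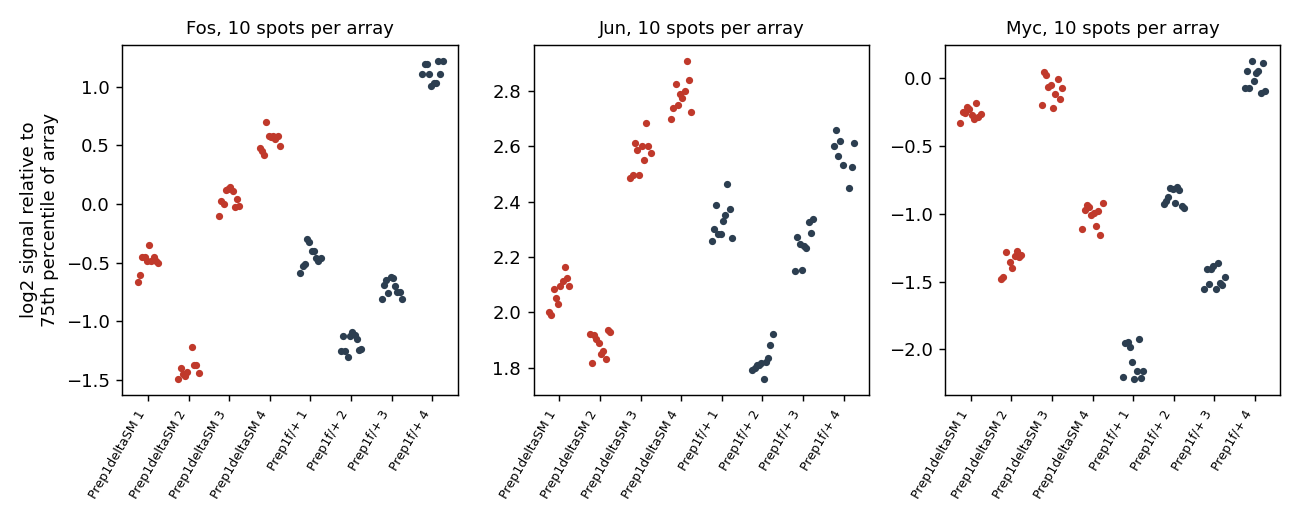
Each spot of the Fos, Jun and Myc probes that are printed 10 times, by muscle, as log2 signal relative to the 75th percentile of the array (Prep1deltaSM red, Prep1f/+ dark). Spots of 1 muscle lie close together, and the muscles of each group lie far apart, for Fos from -1.41 to 0.54 in Prep1deltaSM and from -1.19 to 1.12 in Prep1f/+.

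Fos varied together with part of the class. Over the 8 muscles its correlation was r = 0.89 with Jun (exact permutation p = 0.004), 0.88 with Btg2 (p = 0.0035) and 0.87 with Atf3 (p = 0.0051), each at an adjusted p of 0.0136 over the 8 relations of Fos and 0.0307 over all 36 pairs of members. Spearman's rho was 0.93 with Jun (exact permutation p = 0.0022, adjusted 0.0179) and 0.86 with both Btg2 and Atf3 (p = 0.0107, adjusted 0.0286). By rank these were not past the threshold over all 36 pairs (adjusted p = 0.0791 for each), where 0 pairs were. Without Prep1deltaSM replicate 4 and Prep1f/+ replicate 4, the muscles farthest from the median of Fos, r was 0.92 with Jun, 0.69 with Btg2 and 0.49 with Atf3. With 6 muscles left the exact permutation p was 0.0125 for Jun (adjusted 0.1), 0.129 for Btg2 and 0.346 for Atf3, so that none of the 3 passed after adjustment. With the other members r was 0.66 for Dusp1 (adjusted exact permutation p = 0.155), 0.51 for Myc, 0.26 for Ier2 and 0.05 for both Junb and Egr1. Without the same 2 muscles it was 0.29 for Dusp1, 0.38 for Myc, 0.26 for Ier2, 0.23 for Junb and 0.48 for Egr1. On deviations from the group means it was then 0.79 for Junb and 0.77 for Egr1 over 6 muscles, against 0.096 and 0.05 over all 8. The approximate permutation p over the 6 was 0.0597 and 0.0819 (adjusted 0.2185 each over the 8 relations of Fos), so neither passed. On deviations from the slide mean, r was 0.78 with Jun, 0.90 with Atf3 and 0.89 with Btg2; a slide holds 2 muscles, so these deviations are mirror images and give no p.

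Junb and Egr1 varied together within the groups. Since the groups do not overlap for Junb, a pooled correlation would repeat that difference, so deviations from the group means were used, among 36 pairs of the 9 members chosen after the data were seen. Junb and Egr1 then had r = 0.95 (permutation p = 0.0001, adjusted 0.0045 over 36 pairs) and rho = 0.93 (p = 0.0022, adjusted 0.0402). The permutation moved deviations freely between the groups, although they cancel out within each group. Every p on deviations from group means is therefore approximate and not exact. Without Prep1deltaSM replicate 3 and Prep1f/+ replicate 1, the farthest from the median, r of Junb with Egr1 was 0.93. In each group 1 muscle was highest for both genes, Prep1deltaSM replicate 3 and Prep1f/+ replicate 1. Junb with Ier2 gave r = 0.63 (permutation p = 0.0872, adjusted 0.283) and Egr1 with Ier2 0.77 (p = 0.0231, adjusted 0.104), which did not pass. Of the 36 pairs, 4 passed on deviations from group means, the other 3 being Fos with Jun, Atf3 and Btg2 (adjusted p = 0.0342 each). By rank 2 of the 36 passed, Junb with Egr1 and Fos with Jun, while Fos with Atf3 (adjusted permutation p = 0.0548) and with Btg2 (0.0643) did not.

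**Figure D4:**
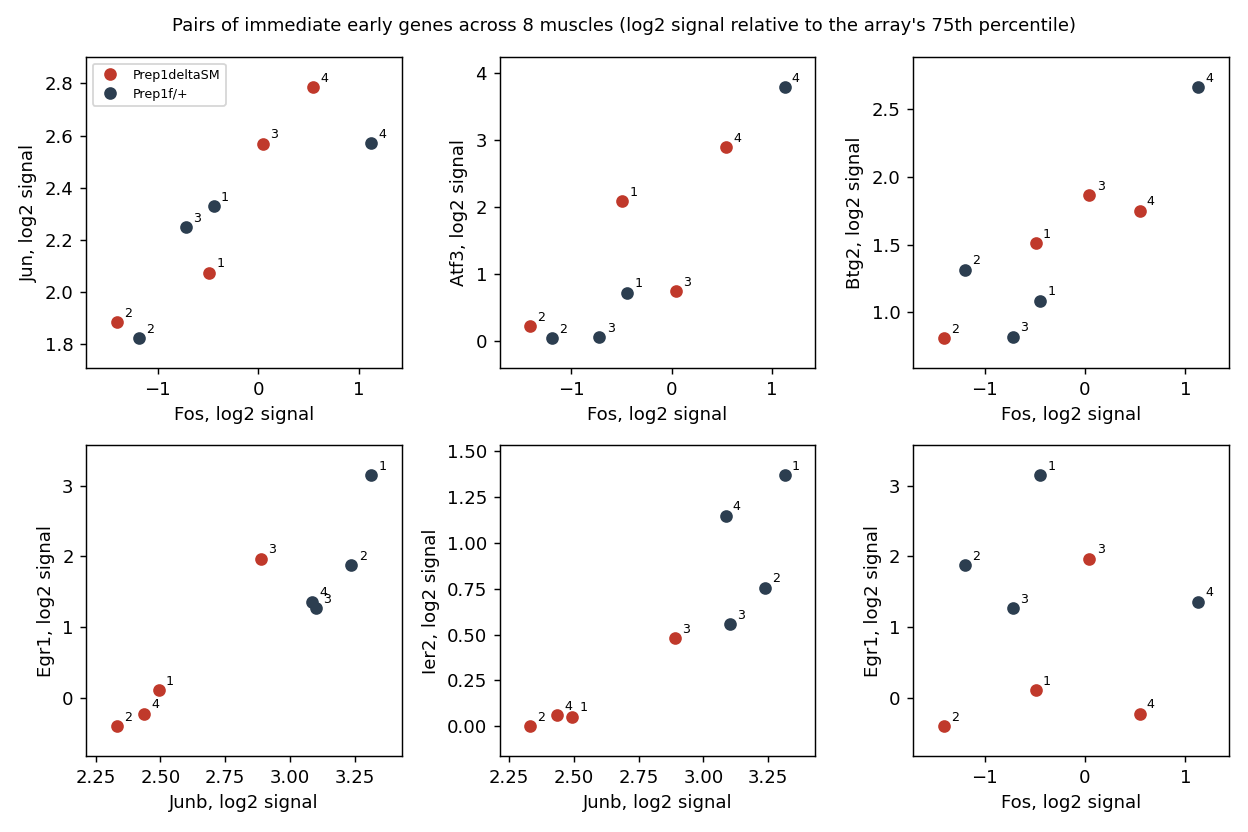
Levels of 6 pairs of members in the 8 muscles (Prep1deltaSM red, Prep1f/+ dark, numbers are replicates), both axes as log2 signal relative to the 75th percentile of the array. Jun runs up with Fos in order in both groups. Atf3 and Btg2 run up with Fos over the 8 muscles, with the 2 muscles numbered 4 at the upper end for Atf3. Within groups their order differs: Prep1deltaSM replicate 1 is above replicate 3 for Atf3. For Btg2, Prep1f/+ replicate 2, the lowest of its group for Fos, is above replicates 1 and 3. In the panels of Junb the groups lie apart on the horizontal axis, and Egr1 follows Junb within each group; Egr1 against Fos has r = 0.05.

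The muscles highest for Fos and Atf3, Prep1deltaSM replicate 4 and Prep1f/+ replicate 4, also had the highest mean of the heat shock list. The mean centred level of 8 heat shock genes was -0.09, -0.55, -0.36 and 0.94 in Prep1deltaSM muscles, against 0.14, -0.45, -0.31 and 0.69 in Prep1f/+ muscles. Hspa1a, the inducible HSP70 chaperone, stood at 1.72, 0.56, 1.01 and 4.22 in Prep1deltaSM, against 2.30, 1.05, 1.30 and 3.80 in Prep1f/+. Of the 8 genes, all 8 were highest of their group in Prep1deltaSM replicate 4 and 5 in Prep1f/+ replicate 4, while Bag3, Hspa8 and Hspb1 were higher in Prep1f/+ replicate 1. Between groups, 0 of the 8 heat shock genes passed the limma test or had an unadjusted p under 0.05 (3 higher, 5 lower). The 2 with the smallest p were Hspb1 (-0.14) and Hspa8 (0.07), and the list median was -0.0035. The part of this in the Fos and Atf3 values was not tested.

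Markers of the cell types of muscle were read beside these values, 58 tested genes in 10 lists, of which 0 passed the adjusted limma threshold. At an unadjusted limma p under 0.05 there were 4 higher and 7 lower, shares near the 5.54% and 10.4% of all genes. Whatever their p, 10044 of all 16016 genes had lower means in Prep1deltaSM and 5972 higher. All 10 tested leukocyte and macrophage markers had lower means in Prep1deltaSM muscle, as Junb, Ier2 and Egr1 did, with a median log2 difference of -0.46, against -0.07 for all genes. Among them were Csf1r (-0.76), the receptor that macrophages depend on, C1qa (-0.66) and Emr1 (-0.54), with adjusted p of 0.178, 0.263 and 0.291. The mean centred level of these 10 ran from -0.63 to 0.12 in Prep1deltaSM and from -0.08 to 0.56 in Prep1f/+, lowest in Prep1deltaSM replicate 4. Of 7 fibroblast markers 6 were lower (median -0.41), with Fbn1 at -0.69, Dcn at -0.58 and Lum at -0.42, and means from -0.68 to 0.41 in Prep1deltaSM and from -0.20 to 0.36 in Prep1f/+. All 4 tested satellite cell markers were lower (median -0.18), led by Cdh15 (-0.64, adjusted p = 0.0897), as were the 5 tested adipocyte markers (median -1.03), which ran from -2.13 to 1.09 in Prep1deltaSM and from -0.74 to 1.21 in Prep1f/+.

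Other marker lists lay the other way or near 0. The 5 Schwann cell markers were all higher (median 0.29), as were both tested neutrophil markers (median 0.88) and 3 of 4 tested erythroid markers (median 0.94). The medians were -0.05 for 8 myofibre, -0.05 for 7 endothelial (whose mean difference was 0.046) and 0.02 for 6 smooth muscle and pericyte markers. Of the last, 3 were higher, with Acta2 and Myh11 at 0.44 each (limma adjusted p = 0.172 and 0.179). The 3 lower were Tagln and Pdgfrb at -0.23 each and Cnn1 at -0.04. Of the endothelial markers 3 were higher and 4 lower, with Tek at 0.39 (limma adjusted p = 0.222). Neutrophil S100a9 was at 0.67 (limma adjusted p = 0.312). The list means of the groups overlapped in each of the 10 lists. Lep of adipocytes, Myf5 of satellite cells and Retnlg of neutrophils were not well above background on any array. Prep1deltaSM replicate 3 was highest of its group for Junb, Egr1 and Ier2 and for the leukocyte (0.12) and fibroblast (0.41) lists. Prep1f/+ replicate 1, the highest of its group for the same 3 members, was the lowest of its group for both lists, at -0.08 and -0.20. The part of other cell types in the member values was not tested.

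Genes outside the 10 belonging to the same responses gave 0 past the adjusted limma threshold among 91 tested in 7 lists, with 4 higher and 6 lower at an unadjusted p under 0.05, where the shares of all genes are 5.54% and 10.4%. In the list of 34 other immediate early genes, 31 were tested, with 13 higher, 18 lower and a median difference of -0.14, against -0.07 for all genes. At an unadjusted limma p under 0.05 there were 3, each lower in Prep1deltaSM, a share near the 10.4% of all genes. Cyr61, a matrix protein gene driven by stretch through YAP, read 1.55, 0.70, 1.60 and 1.66 in Prep1deltaSM muscles, against 2.43, 2.50, 1.41 and 2.48 in Prep1f/+ muscles. Prep1f/+ replicate 3 was the 1 control muscle within the range of the Prep1deltaSM group, and the difference was -0.83 ± 0.30 (SE; limma adjusted p = 0.254). Zfp36, whose protein speeds the decay of AU-rich messages, read -0.62, -0.56, 0.14 and 0.13 in Prep1deltaSM, against 0.40, 0.17, 0.26 and 0.22 in Prep1f/+. These groups did not overlap, narrowly, with a difference of -0.49 ± 0.19 (SE; adjusted p = 0.279). Klf2, a Krüppel-like factor, differed by -0.61 ± 0.26 (SE; adjusted p = 0.307) and the kinase gene Plk2 by -0.37 ± 0.17 (0.336). For Klf2, Prep1f/+ replicates 2 and 3 lay within the Prep1deltaSM range. Its difference rested mostly on replicates 1 and 4, which stood apart on the first principal component. For Plk2, Prep1f/+ replicates 2 and 4 lay within the Prep1deltaSM range, and replicate 1 was the farthest above it.

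Nr4a3, an orphan nuclear receptor gene induced by exercise, had the largest mean difference of that list in the other direction. Its level was -0.75, -3.04, -1.71 and 0.62 in Prep1deltaSM muscles, against -4.96, -3.54, -3.22 and -1.02 in Prep1f/+ muscles. Values spread widely in both groups, with the muscle numbered 4 highest in each, and the difference was 1.96 ± 0.95 (SE; 95% interval -0.21 to 4.14; limma adjusted p = 0.353). Its low values were dim. The -4.96 of Prep1f/+ replicate 1 was below Fosb in the same muscle (-4.63), where Fosb was not well above background. The part of dim signal in the difference and the spread was not tested. Csrnp1 and Maff, a small Maf factor gene, were also highest in the muscles numbered 4, at 2.58 and 2.41 for Csrnp1 and 0.71 and -0.18 for Maff in Prep1deltaSM and Prep1f/+. They differed by 0.15 ± 0.59 and 0.16 ± 0.54 (SE). Socs3 (0.21) and the clock gene Per1 (0.49) were the remaining genes with the largest within-group SD. Egr3, Egr4 and Fosl1 were not well above background on any array.

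**Figure D5:**
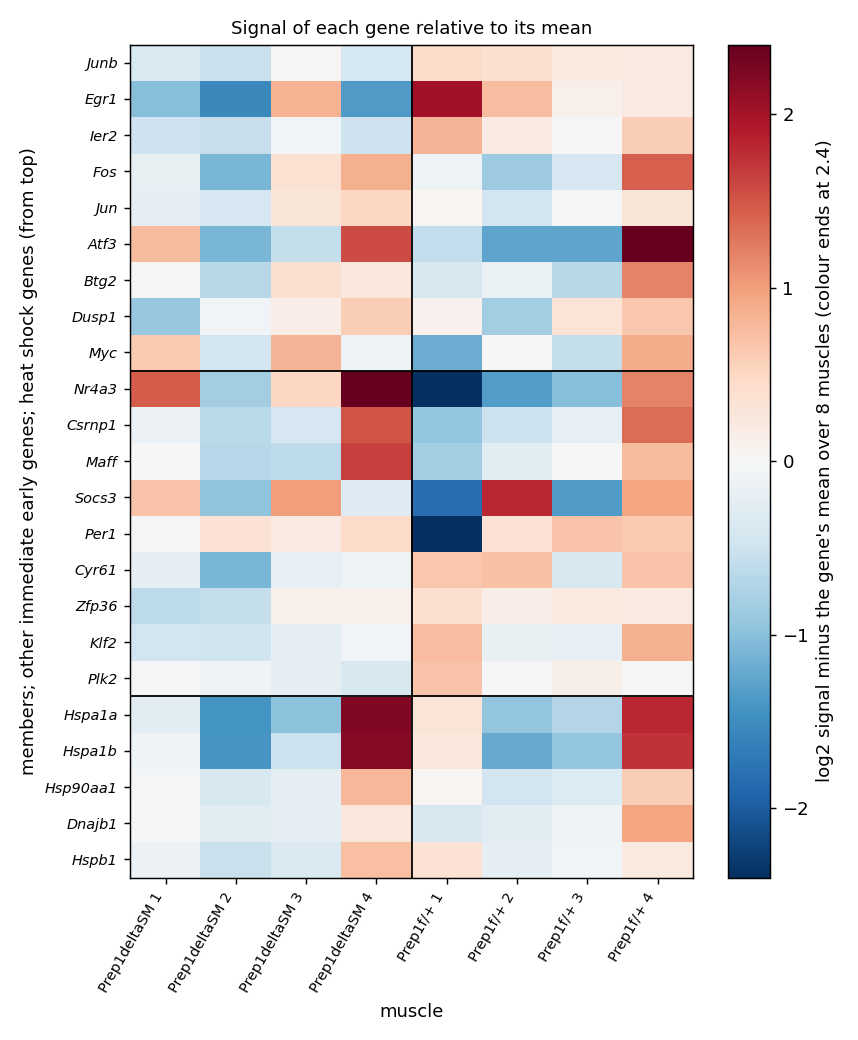
Level of each gene minus its mean over the 8 muscles, on the log2 scale, with the Prep1deltaSM muscles left of the line and the Prep1f/+ muscles right of it. Rows are the 9 tested members, 9 other immediate early genes and 5 heat shock genes. Junb and Ier2 are pale or blue in all 4 Prep1deltaSM columns, and Fos, Atf3, Csrnp1, Hspa1a and Hspa1b are red in both columns numbered 4.

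Genes that act above and beside the members were also read from lists. By mean, 10044 of all 16016 genes were lower in Prep1deltaSM and 5972 higher. Of 21 tested kinases and factors that switch the class on, 8 were higher and 13 lower (median -0.04), led by the kinase gene Map2k1 (0.25 ± 0.10, SE) and Atf1 (-0.21 ± 0.09), and the within-group SD was above the 90th percentile of all genes for 0 of them. Among 10 dimer partners of AP-1, 4 were higher and 6 lower (median -0.08), led by Atf4 (0.28 ± 0.11) and Atf7 (0.19 ± 0.08). Dusp6, an ERK phosphatase gene that ERK itself induces, read 2.48, 2.89, 2.76 and 2.67 in Prep1deltaSM muscles, against 3.35, 2.96, 3.33 and 2.86 in Prep1f/+ muscles. Only Prep1deltaSM replicate 2 lay above any Prep1f/+ muscle, the lowest of them, and the difference was -0.42 ± 0.14 (SE; limma adjusted p = 0.233). Dusp8, a phosphatase gene for JNK, differed by -0.76 ± 0.27 (SE; limma adjusted p = 0.244). It read 5.80, 5.74, 6.08 and 6.25 in Prep1deltaSM, against 7.16, 6.23, 6.24 and 7.28 in Prep1f/+. Prep1f/+ replicates 2 and 3 lay within the Prep1deltaSM range. The difference rested on replicates 1 and 4, which stood apart on the first principal component. Of the 8 other MAP kinase phosphatases 3 were higher and 5 lower (median -0.08). The 4 relatives of Btg2 were split 2 and 2 (median -0.0023), with Tob1 at 0.19 and Btg1 at -0.10. Of 9 genes of the Myc network 3 were higher and 6 lower (median -0.01), with Mga, a Max partner, at 0.36 ± 0.12 (adjusted p = 0.233) and Mxd4 at -0.15.

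By a rule on likeness over all genes, the 5 genes outside the members whose levels over the 8 muscles most resembled the mean centred level of the 9 members were Il1r1, A_52_P1189070, Olfr411, Wnt1 and D930020B18Rik. Pearson's r was 0.98 for Il1r1, the receptor gene for interleukin-1, 0.98 for A_52_P1189070 and 0.97 for the other 3, over 8 muscles. All but Il1r1 were dim, with levels between -4.72 and -2.50, and each was highest in Prep1f/+ replicate 4. That array had the fewest spots well above background, and the part of dim signal in the likeness was not tested. The mean of the members itself was -0.20, -0.71, 0.25 and 0.15 in Prep1deltaSM muscles, against 0.12, -0.25, -0.25 and 0.88 in Prep1f/+ muscles. Prep1f/+ replicate 4 was highest and Prep1deltaSM replicate 2 lowest, and the groups overlapped. Il1r1 read -1.03, -1.51, -0.77 and -0.67 in Prep1deltaSM, against -0.61, -1.05, -1.01 and -0.04 in Prep1f/+, with its extremes in the same 2 muscles and a difference of -0.31 ± 0.26 (SE; limma adjusted p = 0.580). The likeness was picked as the highest of 16016, so r carries no test.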

How the data were processed

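Spot intensity was deposited by the authors. Per the file headers, Feature Extraction 10.5.1.1 subtracted background and did not normalize between arrays, whereas version 9.1 is named in the submitters' processing notes. From the log2 of the processed signal, the array's 75th percentile was subtracted. Spots called non-uniform or outlying by the scanner software (49 to 100 per array, 5 of members in all) were set missing and spots of a probe averaged. A probe had to be well above background on 4 or more of the 8 arrays (24488 of 41174 were), and the brightest stood for its gene. The test was limma 3.58.1 (lmFit, eBayes; R 4.3.3) with Benjamini-Hochberg adjustment over 16016 genes, checked on simulated data. Exact permutations of correlations used NumPy 2.4.6. No spot was saturated. The number of arrays limits the precision.

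The authors' deposited table of 32812 intensity values, linear and quantile-normalized as far as its values show, was an alternative through 26248 of its rows. These lay within 0.1 log2 of the quantile-normalized signal computed here, and the rest were left out. That setting therefore had to lie close to quantile normalization and was no independent check. Fos, Junb and Myc lay outside these rows in whole or by probe. The deposited column medians were 12.7 to 13.2, and the table is not centred. Other alternatives changed background correction, scaling, filter, probe rule, slide block and arrays used. Members, lists and tests were chosen with earlier results of these data known. Named were all members, from each list of related genes the 2 genes with the smallest p, from the other immediate early genes the 5 with the smallest p and the 5 with the largest within-group SD, the 5 genes most like the members' mean, and Hspa1a, added after its values were seen. Cell type markers were named by result, those with an unadjusted limma p under 0.05. The lower smooth muscle and pericyte markers and markers never well above background were named beside them. Replicate numbers are in accession order and pair no mice.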

Additional observations from a re-analysis of the deposited data

Results flagged for a closer look

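Dixon's ratio, the gap between an extreme value and its neighbour over the whole range, passed its 95% critical value in 6 of 80 groups of 4 muscles, where chance gives about 4. Among the members this held for Ier2, for which Prep1deltaSM replicate 3 was highest of its group (ratio 0.875), at 0.48 against 0.00 to 0.06 in the other 3. Cyr61 was lowest in Prep1deltaSM replicate 2 (0.883), at 0.70 against 1.55 to 1.66, and lowest in Prep1f/+ replicate 3 (0.942), at 1.41 against 2.43 to 2.50. Per1 was lowest in Prep1f/+ replicate 1 (0.9), at -1.85 against 1.14 to 1.47. Tob1 was highest in that muscle (0.889), at 4.97 against 4.85 to 4.86. The list mean of the AP-1 partners was highest in Prep1deltaSM replicate 4 (0.874), at 0.22 against -0.12 to -0.08.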

How the results depend on the processing

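In all 18 alternative settings 0 members and 0 genes of the 7 lists passed the adjusted threshold. Among the settings, the authors' values could only lie close to quantile normalization. Junb (-0.76 to -0.48, limma adjusted p 0.0886 to 0.384) and Ier2 (-0.94 to -0.51, 0.103 to 0.421) kept direction wherever included. So did Egr1 (-2.08 to -1.10, limma adjusted p 0.211 to 0.519) and Myc (0.10 to 0.80). The setting with the authors' values did not include Junb or Myc, whose rows there lay more than 0.1 log2 off the quantile-normalized signal. Their direction in it was not read. The sign of Btg2 turned with median centring (-0.0025) and normexp with an offset of 50 then quantile (-0.0069). With the authors' values Btg2 was at -0.036, read from another probe (A_52_P31543) that was also negative in the main processing (-0.04). Without Prep1f/+ replicates 1 and 4, chosen after the data were seen, Dusp1 was at 0.19 and Fos at 0.63. Leaving out 1 muscle turned the sign of 5 members: the range was -0.14 to 1.21 for Atf3, -0.20 to 0.41 for Btg2, -0.42 to 0.16 for Dusp1, -0.31 to 0.46 for Fos and -0.067 to 0.23 for Jun. The median of the members ran from -0.31 to 0.29. Genes past the threshold numbered 26 after normexp and 5 without Prep1deltaSM replicate 4, and 0 with slide as a block, without Prep1f/+ replicates 1 and 4 together, and without Prep1deltaSM replicate 2 or Prep1f/+ replicate 2 or 3.

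On deviations from slide means the correlation of Fos was -0.26 with Junb, -0.55 with Egr1, -0.22 with Ier2 and 0.78 with Jun; without the 2 muscles farthest from the median of Fos it was 0.92 with Jun (adjusted exact permutation p = 0.1), 0.49 with Atf3 (0.643) and 0.69 with Btg2 (0.517), where 6 muscles are left. The cause of these changes was not tested. Replicate numbers were given in accession order and pair no mice. With slide, which pairs 1 array of each group, as a block, the limma adjusted p was 0.214 for Junb, 0.207 for Ier2 and 0.304 for Egr1. Signal limits Fosb, which was above background on 2 of 8 arrays.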
